A study of Mus musculus with 6 samples.

Results

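The results concern 9 genes that mark macrophages settled in tissue and along vessels: Mrc1, Stab1, Cbr2, Folr2, Lyve1, F13a1, Timd4, Mgl2 and Fcna. They are 9 of the 42256 genes in the deposited count table, and each matched 1 row by its symbol. The genes were chosen by their place in this marker set and with the knockout against wild-type values of these same libraries known. Their differences between genotypes are therefore given as a description, without p-values. Where a member is said to pass the threshold or not, this is its place in the fit over all genes. Such a pass is part of the description and does not count as a test of the member. Tested members are those that passed the filter on low counts. All 6 libraries come from macrophages grown out of the marrow of adult males on a mixed 129S1/Sv x C57BL/6 background. The 3 wild-type (WT) libraries carry the genotype CDH11+/+ and the 3 knockout (KO) libraries CDH11-/-. Cdh11 encodes cadherin-11, an adhesion protein known mainly from mesenchymal cells. Marrow cells of both genotypes were grown for 7 days with 20% L929-conditioned medium, a source of the growth factor CSF1, and 10% FBS, and received no further treatment. The series' design mentions 4 KO animals, of which 3 KO libraries are analysed here. How the Cdh11 allele was made, and whether each library is 1 animal, is not stated in the labels. P-values therefore cover no more than the spread between the 6 libraries, which may in part be technical.

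Tissue-resident macrophages take up waste from their surroundings through endocytic receptors. The mannose receptor, encoded by Mrc1, binds sugar-bearing proteins and collagen fragments, and stabilin-1, encoded by Stab1, takes up modified lipoprotein and other worn-out ligands. Several of the 9 genes are also raised by interleukin-4 or glucocorticoid and are therefore used as markers of alternative activation. Macrophages grown from marrow in CSF1 resemble resident cells in part and lack the signals of a tissue.

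The bases upstream of the start site of the 4 members with the highest level per length in KO libraries are shown because 3 of these genes had lower KO values and Folr2 had higher ones. Sequences are from RefSeq (GRCm38.p6), 5′ to 3′ on the gene's strand, and reach from 250 bases before the RefSeq start to the edge of the gene in GENCODE M21, so none includes transcribed bases of that gene. Capitals mark 2 short motifs: GAGGAAG, a PU.1 box, bound by the macrophage regulator PU.1, on either strand (CTTCCTC is its reverse complement), and TGCTGA, the core of a site bound by MAF proteins, on either strand.
Mrc1, chr2:14229164-14229391, plus strand: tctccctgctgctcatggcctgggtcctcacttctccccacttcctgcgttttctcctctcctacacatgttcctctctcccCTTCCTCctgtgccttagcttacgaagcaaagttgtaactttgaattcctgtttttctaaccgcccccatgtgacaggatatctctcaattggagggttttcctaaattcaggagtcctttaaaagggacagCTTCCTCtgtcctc
Stab1, chr14:31168642-31168891, minus strand: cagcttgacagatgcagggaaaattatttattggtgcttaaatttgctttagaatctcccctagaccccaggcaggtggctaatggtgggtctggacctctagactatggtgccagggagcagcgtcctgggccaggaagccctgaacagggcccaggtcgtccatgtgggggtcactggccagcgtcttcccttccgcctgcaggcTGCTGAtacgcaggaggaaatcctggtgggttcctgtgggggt
F13a1, chr13:37050245-37050494, minus strand: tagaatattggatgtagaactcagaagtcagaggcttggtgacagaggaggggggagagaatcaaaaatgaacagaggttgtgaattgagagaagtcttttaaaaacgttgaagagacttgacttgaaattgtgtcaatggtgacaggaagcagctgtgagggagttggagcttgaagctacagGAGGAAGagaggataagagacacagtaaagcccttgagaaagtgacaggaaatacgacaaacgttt
Folr2, chr7:101857195-101857440, minus strand: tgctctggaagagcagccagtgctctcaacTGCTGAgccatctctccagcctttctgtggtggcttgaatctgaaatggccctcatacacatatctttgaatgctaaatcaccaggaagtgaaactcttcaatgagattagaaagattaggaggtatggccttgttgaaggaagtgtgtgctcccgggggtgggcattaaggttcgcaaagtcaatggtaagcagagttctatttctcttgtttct
RefSeq's table held an entry for 8 of the 9 members, with 10 windows in all because some genes have a further start. There is no entry for Lyve1. Over the full 250 bases before each start, the PU.1 box occurred in windows of 4 members, Cbr2, F13a1, Fcna and Mrc1, and in 10.6% of all 32851 windows. The MAF core occurred in windows of 4 members, Fcna, Folr2, Stab1 and Timd4, and in 16.1% of all windows. Fcna held both. Of the other motifs among the 9 searched on both strands, AP-1 (TGANTCA, 6.75% of all windows) and RUNX (TGTGGT, 14% of all windows) each occurred in Folr2 alone. The AP-1 match lies in a further Folr2 window, chr7:101845332-101845581, which is not shown, and the RUNX match in the window shown. STAT6 (TTC and GAA spaced by 4 bases), IRF (GAAA repeated after 2 bases), an ETS core (CCGGAAG), the E-box CACGTG and CEBP (TTGCNNAA) occurred in none of the 10 windows, against 5.85%, 2.98%, 6.91%, 6.02% and 9.56% of all windows. The motifs were settled after matches had been seen, and a match describes these letters only.

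The libraries held 27170943 to 37113689 counts. Of 12862 genes that passed the filter on low counts, 4532 were called at an adjusted p under 0.05, which is 35.2%. The median log2 fold change of all tested genes was 0.00, a centre that the scaling itself sets, so fold changes are relative to the typical gene. Cdh11 itself had 6, 11 and 6 counts in WT and 6, 4 and 5 in KO, too few to check the genotype labels. Levels are given as CPM, the usual scale of counts relative to the library total, here with totals scaled by TMM. Fold changes are log2 of KO over WT with a standard error (SE) from the fit across all genes. The spread around a mean is the SD over 3 libraries.

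Mrc1 (ENSMUSG00000026712, chr2:14229392-14332057, plus strand, GRCm38) stood at 2086, 1897 and 1860 CPM in WT 1 to WT 3 and at 984, 879 and 845 CPM in KO 1 to KO 3. The genotypes did not overlap, and within each the libraries lay close together. The mean was 1948 ± 121 CPM in WT and 903 ± 72.6 CPM in KO, a log2 fold change of -1.11 (SE 0.09). This was the smallest SE among the 8 tested members. Stab1 (ENSMUSG00000042286, chr14:31139013-31168641, minus strand) was the most abundant member, at 4019, 4292 and 3533 CPM in WT and 2148, 1655 and 1966 CPM in KO. Here too every KO library was below every WT library. The means were 3948 ± 384 and 1923 ± 249 CPM, with a log2 fold change of -1.04 (SE 0.12). The 3′ end of Stab1 overlaps Nt5dc2 on the opposite strand, which had 2846 to 5061 counts per library against 48226 to 150033 for Stab1. Without knowledge of the strand setting of the counting, reads of the overlap cannot be assigned.

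Lyve1, the hyaluronan receptor that is otherwise known from lymphatic vessels (ENSMUSG00000030787, chr7:110850607-110863239, minus strand), was not detected above the limit of counting. It had 1, 1 and 2 counts in WT and 0, 0 and 0 in KO. A count of 0 allows up to 3 counts, or 0.0997 to 0.105 CPM in the KO libraries, counting error only, and every WT library was below 3 counts as well. Lyve1 did not pass the filter and no fold was formed. At this depth a difference between genotypes in Lyve1 was not detectable.

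Cbr2, a carbonyl reductase of NADPH-dependent carbonyl metabolism (ENSMUSG00000025150, chr11:120729489-120732114, minus strand), had the member set's lowest fold change. It stood at 21.6, 17.5 and 18.9 CPM in WT and at 5.97, 2.47 and 4.22 CPM in KO, from 465 to 808 and from 72 to 170 counts. The genotypes were well apart, although the KO libraries differed among themselves by more than the WT libraries, with a coefficient of variation of 41.4% against 10.8%. The log2 fold change was -2.20 (SE 0.29), or 4.59-fold lower in KO by the means of 19.4 ± 2.09 and 4.22 ± 1.75 CPM. Of the 50-base words of Cbr2 transcripts, 12.1% also occur in the predicted gene Gm11771, which had 0 to 2 counts per library. Gm11771 and Nt5dc2 were named after their values were seen.

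F13a1, the catalytic A chain of coagulation factor XIII, which cross-links fibrin (ENSMUSG00000039109, chr13:36867178-37050244, minus strand), stood at 1586, 1633 and 1204 CPM in WT. In KO it stood at 790, 321 and 494 CPM. All KO libraries were below WT, with KO 1 nearest to them and KO 2 lowest. The means were 1474 ± 235 and 535 ± 237 CPM, with a log2 fold change of -1.46 (SE 0.33). Leaving out single libraries moved this value from -1.86 without KO 1 to -1.20 without KO 2, and the gene did not pass the threshold without WT 1, WT 2 or KO 3 or without a filter on low counts.

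Fcna, ficolin-A, a secreted lectin that starts the complement cascade (ENSMUSG00000026938, chr2:25624666-25628030, minus strand), was low in all libraries. It had 6.43, 7.13 and 5.69 CPM in WT and 3.897, 3.95 and 5.75 CPM in KO. KO 3 lay within the WT range, so the genotypes overlapped. The log2 fold change was -0.50 (SE 0.19) and did not pass the threshold, except when KO 3 was left out. Timd4, a phosphatidylserine receptor that tethers apoptotic cells (ENSMUSG00000055546, chr11:46810800-46844332, plus strand), had 2.87, 5.74 and 2.10 CPM in WT and 2.32, 0.755 and 0.764 CPM in KO. WT 2 was the highest of the WT libraries and KO 1 lay above WT 3, so the genotypes overlapped. The counts behind these values were 61 to 152 in WT and 22 to 66 in KO. The log2 fold change of -1.47 carried the largest SE of the members, 0.56. It did not pass the threshold in edgeR, was -0.97 without WT 2 and passed with DESeq2 and without KO 1.

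Folr2, folate receptor beta, which brings folate into the cell and marks perivascular and tissue-resident macrophages (ENSMUSG00000032725, chr7:101839988-101857194, minus strand), had the opposite pattern. It stood at 23.9, 21.1 and 39.7 CPM in WT and at 53.5, 106.6 and 90.3 CPM in KO. Every KO library was above every WT library, with WT 3 and KO 1 the nearest to each other. The means were 28.2 ± 10.03 and 83.5 ± 27.2 CPM, 2.96-fold higher in KO, with a log2 fold change of 1.56 (SE 0.33). Folr2 did not pass the threshold without WT 1, KO 2 or KO 3 or without a filter on low counts, and its log2 fold change without 1 library ran from 1.35 to 1.89. The antisense gene Gm10602 on the other strand had 39 to 104 counts per library, against 560 to 3105 for Folr2.

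**Figure D1:**
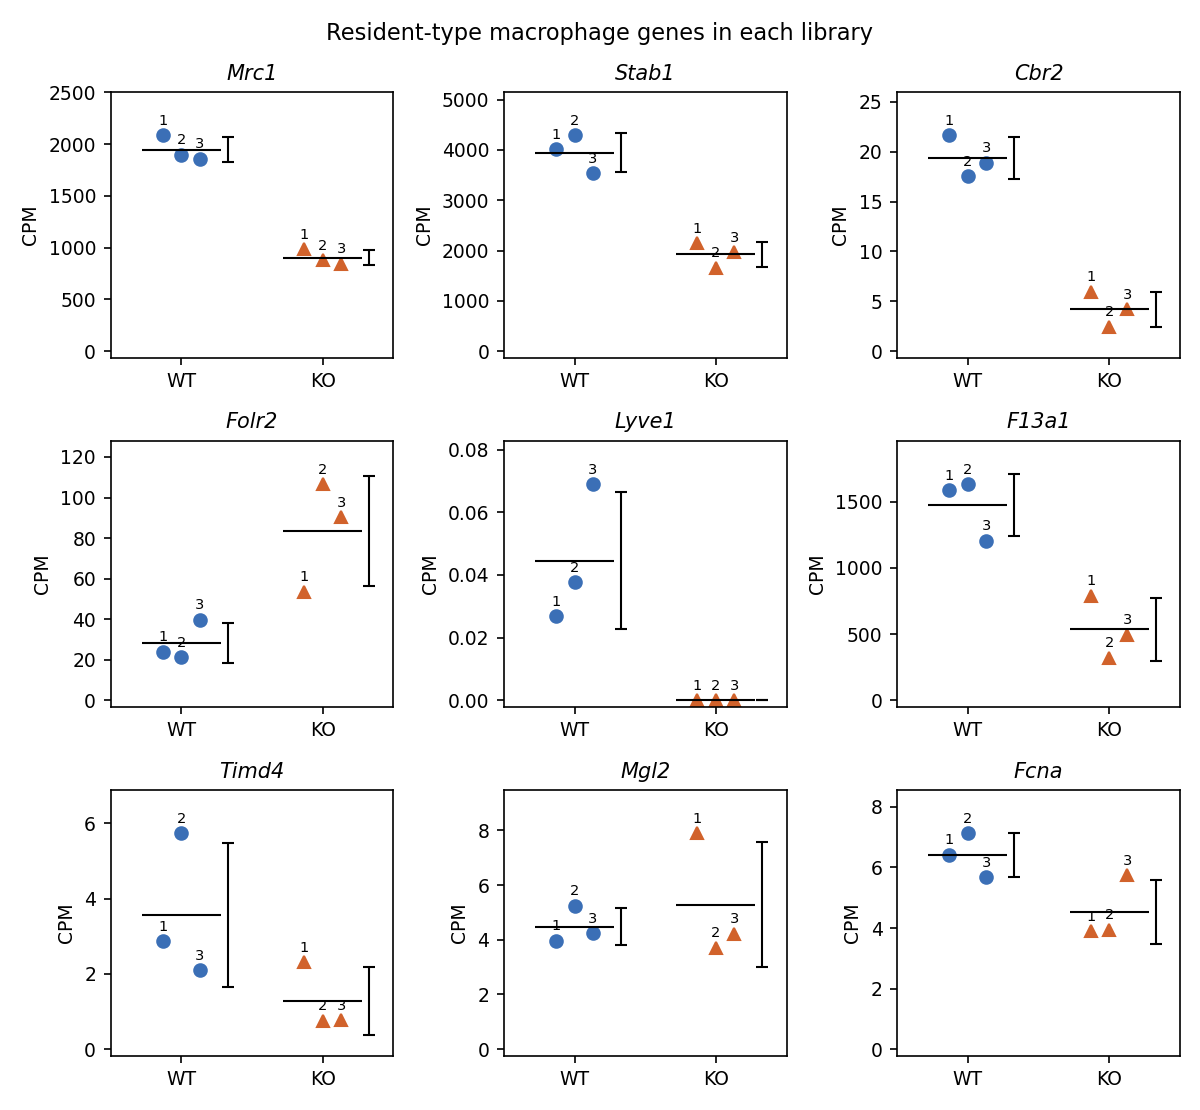
Each panel shows CPM of 1 member in WT (circles) and KO (triangles) libraries, numbered by replicate, with a line at the mean and a bar of ± 1 SD (n = 3). Mrc1, Stab1, Cbr2 and F13a1 are lower in each KO library than in any WT library, Folr2 is higher, Timd4, Mgl2 and Fcna overlap, and Lyve1 is under 3 counts in every library.

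Mgl2, a galactose-binding C-type lectin raised by interleukin-4 (ENSMUSG00000040950, chr11:70130329-70137550, plus strand), did not differ by more than the spread between libraries. It had 3.96, 5.25 and 4.24 CPM in WT and 7.90, 3.71 and 4.22 CPM in KO, with KO 1 alone above the WT range. The log2 fold change was 0.24 (SE 0.30), and it was -0.17 without KO 1. Mgl2 lies near its paralog Clec10a on chromosome 11, and the coding sequences are much alike where they align. There, 823 of 910 aligned coding bases are identical, or 90.4%, with an identical run of 183 bases. The coding parts used have 1143 bases in Mgl2 and 924 in Clec10a, so some Mgl2 bases have no aligned partner. The least alike stretch of 60 bases aligned without a gap is shown from GENCODE M21 transcripts. It gives the bases by which reads of that stretch could be told apart. Shorter aligned stretches were not searched and may differ more. Capitals mark the 6 bases that differ.
Mgl2, chr11:70135987-70136304, plus strand, spliced: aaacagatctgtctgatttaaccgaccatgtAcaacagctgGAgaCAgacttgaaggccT
Clec10a, chr11:70169525-70169789, plus strand, spliced: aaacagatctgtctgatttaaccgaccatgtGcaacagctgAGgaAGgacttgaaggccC
Of all 50-base words of Mgl2 transcripts 13.1% also occur in another gene, and of those of Clec10a 9.02%, so counts of both genes depend on how shared reads were assigned. Clec10a fell from 94.6, 92.2 and 79.9 CPM in WT to 58.6, 33.9 and 44.3 CPM in KO, without overlap (log2 fold change -0.96, SE 0.19; adjusted p = 0.0140, Benjamini-Hochberg over edgeR's quasi-likelihood test). That call was lost without WT 1, without KO 3 and without a filter on low counts, and its adjusted p ran from 3.95e-06 to 0.0527 over the alternatives of the same fit and of the other tools. The ratio of Mgl2 to Clec10a counts was 0.0419, 0.0569 and 0.0531 in WT and 0.135, 0.109 and 0.0953 in KO.

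Of the 8 tested members 4 were past the threshold with lower values in KO, beside 16.8% of all tested genes, and 1 with a higher value, beside 18.5%. The KO libraries lay below all WT libraries for 4 members, beside 26.4% of tested genes, and above them for 1, beside 27% of tested genes. Because the contrast was known when the members were chosen, nothing is read from these counts. The 9 genes did not move as 1 block: log2 fold changes ran from -2.20 to 1.56, with 6 negative and 2 positive values among the 8 tested. In whole-culture RNA, fewer cells that express a gene and less of its RNA per cell cannot be told apart.

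**Figure D2:**
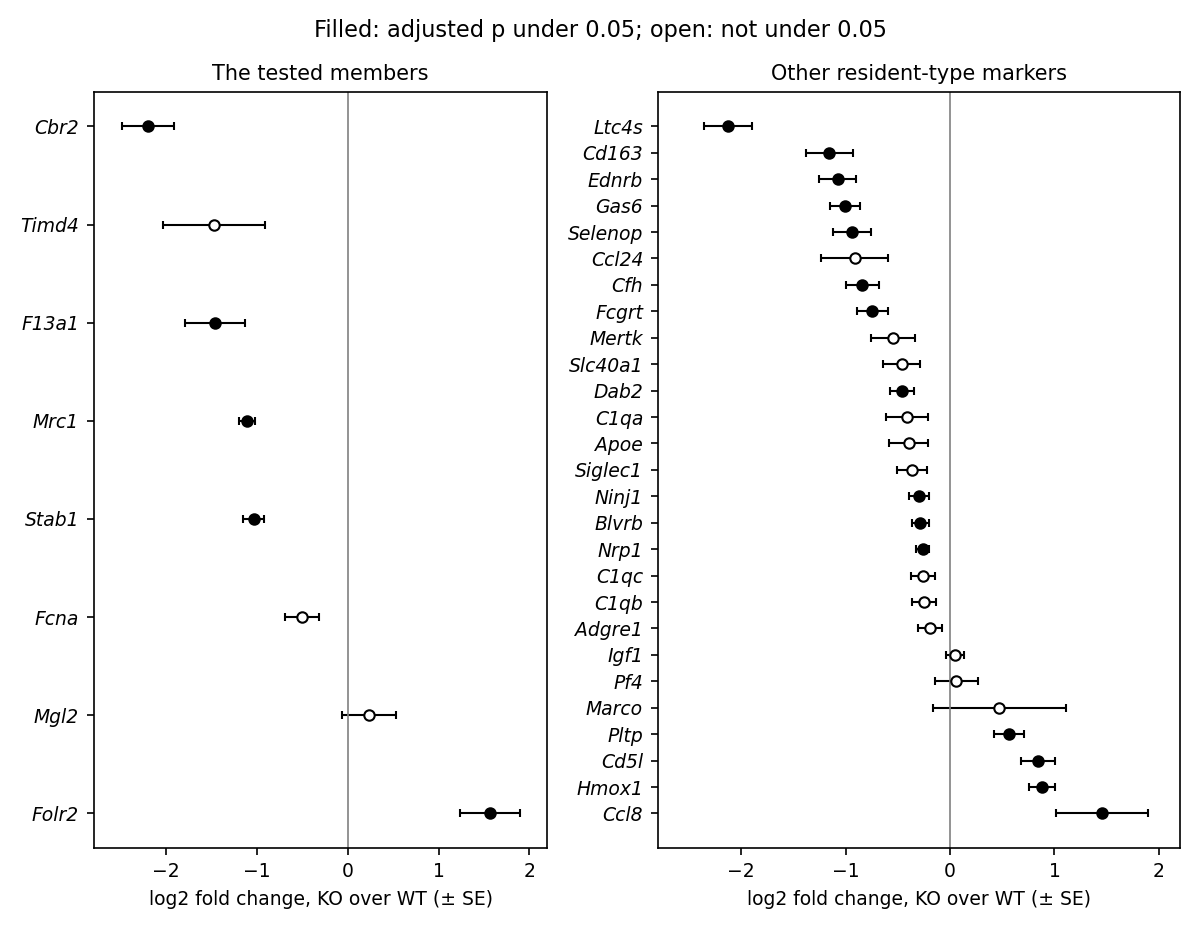
Log2 fold change of KO over WT with its SE for the 8 tested members (left) and 27 other resident-type markers (right), with filled points for an adjusted p under 0.05. For the members the fill is a description only. Members run from -2.20 for Cbr2 to 1.56 for Folr2, and the other markers from -2.12 for Ltc4s to 1.46 for Ccl8.

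Per kb of merged exons, the members spanned a wide range of levels. In WT, Stab1 stood at 384 ± 37.4 CPM per kb, Mrc1 at 306 ± 19.0 and F13a1 at 219 ± 34.9, and neighbours in this order did not overlap. Far below came Folr2 at 18.3 ± 6.49 and Cbr2 at 14.6 ± 1.57 CPM per kb, whose libraries overlapped. Fcna followed at 4.67 ± 0.525 CPM per kb, then Mgl2 at 2.14 ± 0.322 and Timd4 at 1.64 ± 0.882, which overlapped. Lyve1 was at 0.0152 CPM per kb, from 4 counts in all.

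In KO the order of the first 3 was kept, with Stab1 at 187 ± 24.2 CPM per kb, Mrc1 at 142 ± 11.4 and F13a1 at 79.4 ± 35.1. Folr2, at 54.0 ± 17.6 CPM per kb, overlapped F13a1 there, whereas in WT they were far apart. Cbr2 came to 3.18 ± 1.32 CPM per kb, in the range of Fcna at 3.30 ± 0.768 and of Mgl2 at 2.52 ± 1.09, and Timd4 was the lowest tested member at 0.588 ± 0.414. Cbr2 thus left the level of Folr2 and joined that of the low lectins. With the longest transcript as the length, WT F13a1 came to 373 CPM per kb and passed Mrc1 at 362, so the order of these neighbours depends on the length used.

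**Figure D3:**
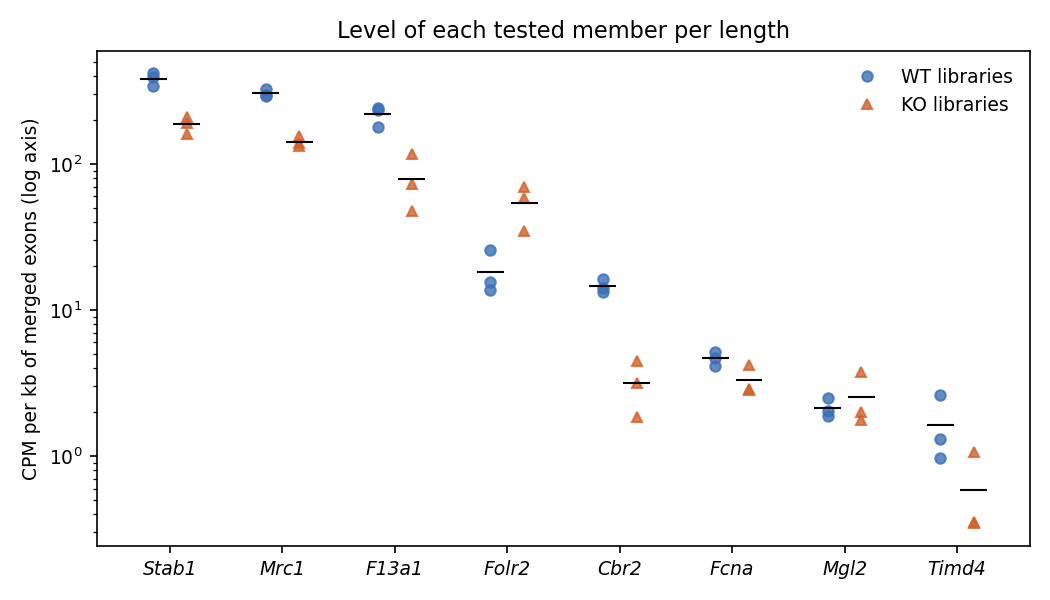
Level of each tested member in CPM per kb of merged exons on a log axis, for WT (circles) and KO (triangles) libraries, with a line at the mean. Stab1, Mrc1 and F13a1 lie highest in both genotypes, and Folr2 and Cbr2, which overlap in WT, are apart in KO.

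The KO libraries were not alike. Coefficients of variation of the tested members ran from 6.22% for Mrc1 to 53.7% for Timd4 in WT and from 8.05% to 70.3% for the same genes in KO. KO 1 was the KO library nearest to the WT mean for 6 of the 8 tested members, and KO 2 the farthest for 5. Along the 6 libraries the average of the standardized log2 CPM of the 8 tested members had a Pearson r of 0.99 with F13a1 and of 0.97 with Stab1, of -0.97 with Folr2 and of 0.21 with Mgl2. Once genotype means were taken out, r was 0.998 for F13a1, 0.96 for Stab1, 0.87 for Mgl2 and 0.62 for Mrc1. It was -0.90 for Folr2 and 0.16 for Fcna. These values are a description over 6 libraries that share their genotypes and include each gene in its own average. Among 5313 genes whose log2 CPM averaged 5 or more, the closest to this average were B3gnt8, Eif4g3, Rnf145, Ppp1r21 and Il10ra, each with r = 0.999. B3gnt8, a glycosyltransferase, had 60.8 ± 4.33 CPM in WT and 41.9 ± 5.76 in KO, and Il10ra, the ligand-binding chain of the interleukin-10 receptor, had 277 ± 29.7 and 171 ± 38.3 CPM. By deviations from the genotype means the closest were Gab1, Arhgap12 and Il6ra.

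Beyond the members, 30 other markers of resident-type macrophages were read, chosen, like the lists below, with earlier results known. Of 27 tested, 11 were called lower and 4 higher, or 55.6%, beside 35.2% of all tested genes. Their median log2 fold change was -0.36 beside 0.00 for all tested genes. In counts over a list, falls and rises are such calls. Ltc4s, leukotriene C4 synthase, had 25.4, 26.1 and 21.03 CPM in WT libraries but 6.53, 3.57 and 6.55 CPM in KO libraries (log2 fold change -2.12), close in size to Cbr2. Cd163, which takes up haemoglobin, fell by 1.16 on the log2 scale, with 3.58 ± 0.581 CPM in WT and 1.61 ± 0.372 in KO. Ednrb, an endothelin receptor, fell from 81.8 ± 14.4 to 38.8 ± 7.37 CPM, and Gas6, a bridge between apoptotic cells and their receptors, from 1091 ± 56.03 to 544 ± 109 CPM. Adjusted p for these 4 ran from 0.00495 to 0.0101 by edgeR's quasi-likelihood test and the Benjamini-Hochberg method. The chemokine gene Ccl8 rose at a low level, from 0.214, 0.642 and 0.207 CPM to 0.878, 0.858 and 1.096 CPM. Ccl8 was not called when WT 1, WT 3, KO 2 or KO 3 was left out. Also called higher were Hmox1, Cd5l and Pltp, which lay at higher levels and were named after their values were seen. Their means were 525, 46.9 and 452 CPM in WT and 965, 84.2 and 667 CPM in KO. The 11 falls became 6 without WT 1 and 7 without KO 3, and the 4 rises became 2 without WT 1, KO 2 or KO 3. Vsig4, Cd209f and Cd209g did not pass the filter.

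Markers of cell types were summed over each list as CPM. Their calls stand beside 16.8% of all tested genes called lower and 18.5% called higher. Macrophage markers were the most abundant, at 32064 to 34683 CPM in WT and 20727 to 26323 in KO, with 3 of 10 lower and 1 higher. Csf1r, the CSF1 receptor, fell from 3723 ± 315 to 2287 ± 372 CPM (adjusted p = 0.00894, Benjamini-Hochberg over edgeR's quasi-likelihood test). Osteoclast markers summed to 121 to 174 CPM in WT and 327 to 587 CPM in KO, with 5 of 6 tested markers higher and with Calcr at 0. Megakaryocyte and platelet markers summed to 169 to 245 and 180 to 284 CPM, mostly Pf4, and 4 of 6 tested were higher. Markers of both lists were higher in the KO libraries in which 4 members were lower and Folr2 was higher, and their part in the members' values was not tested. Endothelial markers, of interest because stabilins and Lyve1 also mark vessels, summed to 41.8 to 55.9 and 51.6 to 68.2 CPM with 0 of 5 called and with Emcn and Clec4g at 0. Fibroblast markers stayed at 2.57 to 5.07 and 2.42 to 2.96 CPM with Dcn and Lum at 0. Monocyte markers summed to 251 to 310 and 240 to 291 CPM with 1 of 8 higher, and neutrophil markers to 33.5 to 86.3 and 39.9 to 115 CPM with 0 of 7 called. Dendritic cell, lymphoid and mast cell lists lay between 0.670 and 7.02 CPM in every library, with 1 marker, in the mast cell list, called higher.

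The closest relatives of the members were read beside them. Of 20 relatives, 14 were tested, and 4 were called lower and 1 higher. This was 35.7% of those tested, close to the 35.2% of all tested genes. The median log2 fold change was -0.13. Clec10a was the largest fall. Among reductases related to Cbr2, Dcxr fell from 38.8 ± 3.72 to 25.4 ± 2.18 CPM and Cbr3 from 23.1 ± 1.35 to 17.3 ± 0.222 CPM (log2 fold changes -0.61 and -0.42; adjusted p = 0.00635 and 0.00703 by edgeR's quasi-likelihood test and the Benjamini-Hochberg method). Cbr1, the relative of Cbr2 with the highest CPM by the mean over all 6 libraries, had 34.7 ± 0.560 and 32.4 ± 2.38 CPM and did not pass. Tgm1, a transglutaminase like F13a1, fell from 1.95 ± 0.284 to 1.21 ± 0.102 CPM, a call lost in 7 of 11 alternatives, and Tgm2 had 84.4 ± 7.60 and 104.5 ± 13.5 CPM and did not pass, except with DESeq2, without a filter on low counts and without KO 1. Cd44, the hyaluronan receptor related to Lyve1, was far above it at 227 ± 28.5 CPM in WT and rose to 309 ± 35.8 CPM in KO. Cd44 was not called when WT 1, WT 2, KO 2 or KO 3 was left out. The falls became 2 without WT 1, without KO 3 or without a filter, and the rise became 0 without WT 1, WT 2, KO 2 or KO 3 and 4 without KO 1.

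Stab2, the other stabilin, stood at 8.79, 8.49 and 8.55 CPM in WT and 15.7, 10.06 and 9.67 CPM in KO. Its KO libraries lay above WT, as those of Stab1 lay below, but the log2 fold change of 0.45 (SE 0.19) did not pass the threshold. The difference between Stab1 and Stab2 was not tested. Folr1, the other folate receptor, was not tested, at 0.155 ± 0.0527 CPM in WT and 0.466 ± 0.186 in KO. Ly75, of the mannose receptor family, Fcnb, the other ficolin, and Havcr2, of the TIM family, averaged 0.445, 0.341 and 16.0 CPM over the 6 libraries, and none of the 3 passed the threshold.

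Regulators and receptors that act on resident-type and alternatively activated macrophages moved in both directions. The 20 genes were chosen with earlier results known. Of the 19 tested, 10 were called lower and 4 higher, or 73.7%, beside 35.2% of all tested genes. The median log2 fold change was -0.20. The receptor chains for interleukin-4, Il4ra and Il13ra1, both fell. Il4ra had 236 ± 29.8 CPM in WT and 118 ± 21.5 in KO, and Il13ra1 had 31.8 ± 6.58 and 16.3 ± 5.25 CPM. The call of Il13ra1 was lost without a filter and without WT 1, WT 2, KO 2 or KO 3. Stat6, the transcription factor downstream of them, had 259 ± 6.06 and 251 ± 9.20 CPM and did not pass. The zinc finger factor Klf2 fell from 29.03 ± 7.38 to 10.7 ± 1.23 CPM, whereas its relative Klf4 rose from 3.83 ± 0.691 to 7.49 ± 1.84 CPM. Klf4 was not called when WT 1, WT 2 or KO 3 was left out. Nr1h3, the oxysterol receptor LXR alpha, rose from 20.3 ± 1.77 to 45.9 ± 1.55 CPM. Adjusted p of these 5 called genes lay from 0.00398 to 0.0308 by edgeR's quasi-likelihood test and the Benjamini-Hochberg method.

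Maf, a transcription factor of resident macrophages, had 1240, 1169 and 1067 CPM in WT and 792, 516 and 581 CPM in KO. Every KO library was below every WT library, with KO 1 nearest to WT. KO 1 was also nearest to WT for F13a1, and for genes outside the members such as Gas6 and Csf1r. The log2 fold change was -0.88 (SE 0.16; adjusted p = 0.00924 by edgeR's quasi-likelihood test and the Benjamini-Hochberg method). Csf1r, Stat6 and Maf were named after their values were seen.

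**Figure D4:**
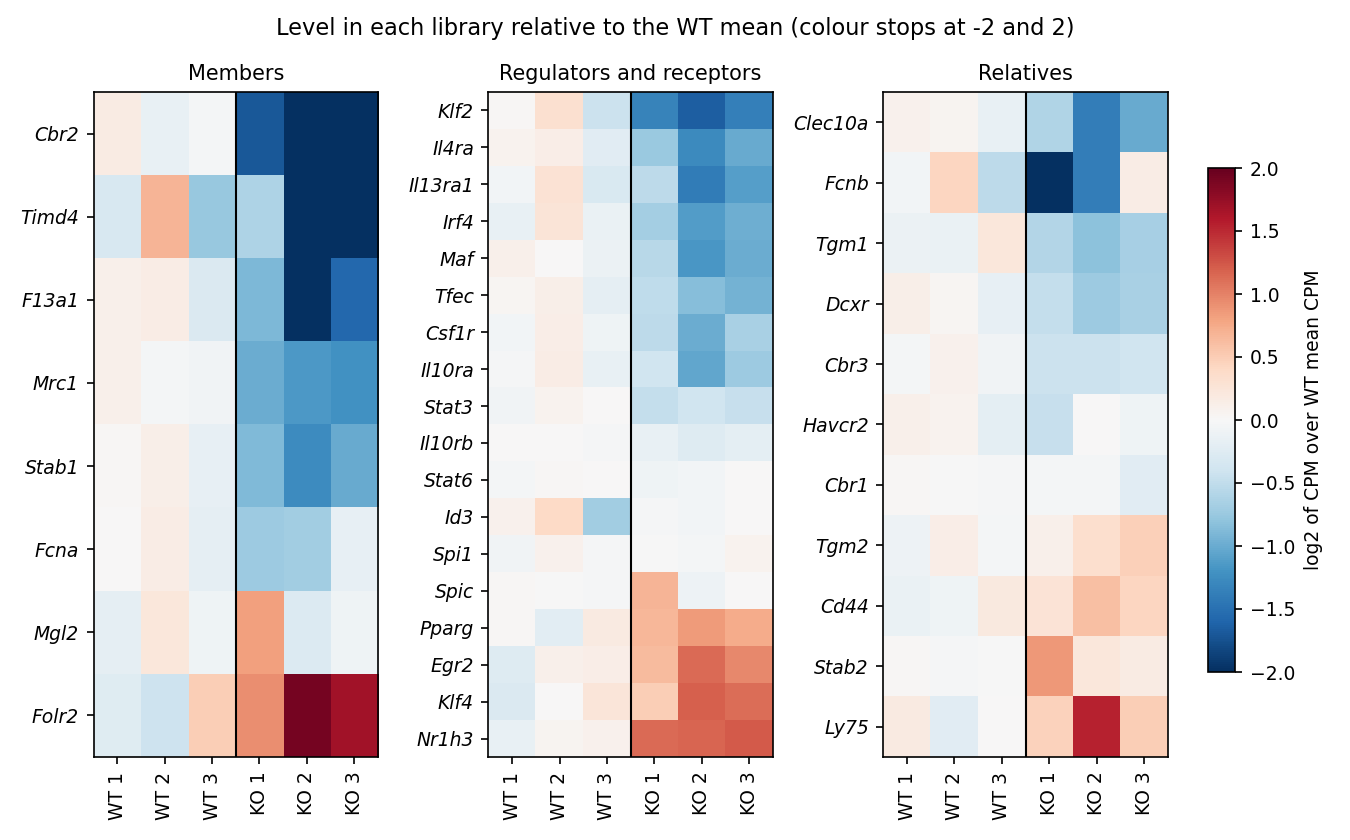
Log2 of CPM over the WT mean CPM in each library for the 8 tested members, 18 of 19 tested regulators and receptors and 11 relatives, with the colour stopping at -2 and 2. Il4ra, Il13ra1, Klf2 and Maf are lower in KO libraries, as are Mrc1, Stab1, Cbr2 and F13a1. Nr1h3 and Klf4 are higher, as is Folr2, and Stat6 lies near 0. Of the 19 tested regulators and receptors, 10 were called lower and 4 higher.

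Several members are markers of interleukin-4 or glucocorticoid action, so 18 other genes of these responses were read. Of 12 tested, 4 were called higher and 1 lower, or 41.7%, beside 35.2% of all tested genes. The median log2 fold change was 0.13. Of the interleukin-4 genes, Chil3, a chitinase-like lectin, had 37.6 ± 10.7 and 43.3 ± 14.3 CPM and did not pass. Arg1, Retnla, Ccl17, Chil4, Alox15 and Pdcd1lg2 were too low to test, and Ccl17 had no count. Chil3 and these 6 were named after their values were seen. Ccl22, a chemokine, rose from 0.599 ± 0.136 to 3.12 ± 0.575 CPM (log2 fold change 2.36) and Il1rn, the interleukin-1 receptor antagonist, from 29.8 ± 7.36 to 109 ± 40.7 CPM (log2 fold change 1.87). Of glucocorticoid-raised genes, Tsc22d3 fell from 56.8 ± 1.94 to 31.5 ± 2.81 CPM and Dusp1 rose from 47.9 ± 4.77 to 87.6 ± 9.92 CPM. Adjusted p for these 4 ran from 0.00398 to 0.00897 by edgeR's quasi-likelihood test and the Benjamini-Hochberg method. Fkbp5 rose by 0.24 on the log2 scale, a call lost in 10 of 11 alternatives. The fall became 2 without KO 1.

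Among 20 endocytic and scavenger receptors of other families, 18 were tested, and 4 were called lower and 3 higher. This was 38.9% of those tested, beside 35.2% of all tested genes. The median log2 fold change was -0.05. Cd36, a receptor for oxidised lipoprotein, rose from 577 ± 149.8 to 1910 ± 535 CPM (log2 fold change 1.73). Scarb1, the receptor for high-density lipoprotein, fell from 116 ± 4.49 to 86.01 ± 6.97 CPM. Adjusted p was 0.00717 for Cd36 and 0.00708 for Scarb1 by edgeR's quasi-likelihood test and the Benjamini-Hochberg method. Scarb2, a lysosomal membrane protein, fell by 0.49 on the log2 scale. It stayed lower, but was not called, when WT 1, WT 2, KO 2 or KO 3 was left out. Msr1, scavenger receptor A, rose by 0.39, a call lost in 7 of 11 alternatives. Without WT 1, WT 2, KO 2 or KO 3 the falls became 2 and the rises 1.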

How the data were processed

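RNA of macrophages from 3 WT and 3 KO cultures was sequenced in directional libraries, per the labels' protocols; groups follow the genotype label, and replicates are numbered by sample order. The count table deposited by the authors holds whole numbers for Ensembl genes. A second table of normalized signal, also deposited, served in 1 alternative. Its values are the counts divided by factors specific to gene and library, so the counts may have been rounded from estimates, which no source states and which would loosen limits set from 0 counts. Per the submitters' processing notes, mm10, DRAGEN and DESeq2 were used. Annotation, strand setting and counting method: not given in the sources used here. Overlapping or near-identical genes may share counts. No sample column was left unmatched (0).

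The test was run on counts in R 4.3.3 with edgeR 4.0.16: filterByExpr (minimum count 10), TMM, the robust quasi-likelihood F test without covariates, and Benjamini-Hochberg adjustment over 12862 genes, with a threshold of 0.05. The SE is the absolute log2 fold change over the square root of F. Symbols and coordinates are from GENCODE M21 (GRCm38, that is mm10), which matched 42170 of 42256 genes. Counts of each replicate pair differed beyond sampling noise (chi-square per degree of freedom 12.57 to 52.5). Totals of 27170943 to 37113689 counts put the limit for a count of 0, 3 counts, at 0.0804 to 0.113 CPM.

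The members and lists were chosen with earlier results of these data known. Named are all members, up to 5 called genes of largest change per list, each member's most abundant relative, and the genes of log2 CPM (prior count 2) most like the members. Some genes that this rule or the lists take in are not reported here. Alternatives were DESeq2 1.42.0, limma-voom (limma 3.58.1), RLE factors, no filter, the omission of each library in turn, and limma on the deposited signal as log2(signal + 1).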

Additional observations from a re-analysis of the deposited data

How the results depend on the processing

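All 11 alternatives were run, and a second gene length for the levels per kb. No fold change of a named gene that passed the threshold changed sign, and no paired analysis was possible because the labels give no shared replicate numbers. Leaving out 1 library left 942 to 2665 falls and 1037 to 2791 rises over all genes, fewer than the 2157 and 2375 with 6 libraries except without KO 1. Over the same settings the members past the threshold with a higher value numbered 0 to 1, and 0 without a filter on low counts. Other resident-type markers had 6 to 15 falls and 2 to 4 rises. Relatives had 2 to 5 falls and 0 to 4 rises, with 2 falls and 2 rises without a filter and 2 rises in DESeq2. Interleukin-4 and glucocorticoid genes had 1 to 2 falls. Receptors of other families had 2 to 5 falls and 1 to 4 rises. With fewer libraries the test has less power, and the cause of each lost call was not tested. Members called as lower numbered 3 to 5 over all alternatives. Low counts limit Timd4, Cbr2, Mgl2 and Fcna in KO, and Lyve1 in all libraries.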
